A study of Mus musculus with 29 samples.

Results

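Collagens are the chains that make up much of the extracellular matrix. The genes described here are all those whose symbol reads Col, a number, the letter a and a number, such as Col1a1. The annotation of the array held 47 rows with a single symbol of this form. They stand for 44 genes of 22180 genes measured; 3 genes had 2 rows, and the row with the higher mean was kept. By the structure of their products, 11 genes encode fibrillar chains, 6 encode basement membrane chains, 9 encode FACIT chains, and 18 encode other chains. FACIT stands for fibril-associated collagens with interrupted helices.

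The 29 Affymetrix arrays each hold RNA from a mouse liver. The animals were C57BL/6N males of 8 to 10 weeks, titled wt in the labels, and each array has its own animal number. The extrahepatic common bile duct was tied off in the BDL (bile duct ligation) mice, and the Sham mice had an operation without ligation. Livers were taken from 3 Sham and 5 BDL mice at day 1, from 2 Sham and 5 BDL mice at day 3, from 4 Sham and 5 BDL mice at day 7, and from 5 BDL mice at day 21. All groups share the strain, the sex, a standard diet and an operation. Day 21 has no Sham group, so BDL at day 21 was set against Sham at day 7, and the effects of ligation and of further time after surgery cannot be told apart there. The day 7 and day 21 comparisons share their Sham arrays, so their results are not independent.

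Collagen chains wind around each other into a helix before they are secreted and assembled. Fibrillar types I, III and V form the fibres of scar tissue, type IV forms the sheet under epithelia and along vessels, and FACIT chains sit on the surface of fibrils. In the liver, hepatic stellate cells and portal fibroblasts are known as the main source of fibrillar collagen, and ligation of the bile duct is a standard model of biliary fibrosis.

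Values are log2 expression levels. A gene entered the test when at least 3 arrays exceeded a log2 value of 5, which 14699 genes did. Among the collagen genes 39 passed: 10 fibrillar, 5 basement membrane, 9 FACIT and 15 other. For 27 of the 39, all 29 arrays lay above 5, and no gene was above 5 only in BDL arrays. Differences are given as log2 of BDL minus Sham with the standard error (SE) of limma's linear model, which shares a spread estimate over all 7 groups. Higher and lower refer to an adjusted p under 0.05, with Benjamini-Hochberg adjustment over all genes tested. Where BDL and Sham arrays are said not to overlap, this was not rare. Over all genes tested, 13.2% did not overlap at day 1, 26.4% at day 3, 20.1% at day 7 and 25% at day 21. BDL was the higher group for 7.7%, 15.1%, 14.2% and 17% of all genes. The RNA is of bulk liver tissue, so fewer cells of a type and less RNA per cell cannot be told apart.

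Some arrays stood apart. Replicate 1 of Sham day 7 had levels in the range of the BDL mice for a part of the raised collagen genes, such as Col1a1. For Col4a1 and Col4a2 it read 7.31 and 7.00, below the lowest BDL day 7 arrays at 7.81 and 7.43. It exceeded the highest of the other 8 Sham arrays for 15 of 39 collagen genes, against 12.1% of all genes tested. It lay at least 1 log2 unit above the mean of the other 3 Sham day 7 arrays for 9 of 39, of which 5 were fibrillar, against 0.605% of all genes. For Col1a1 that array read 10.43, and the other 3 averaged 6.57. Among other genes Acta2, the smooth muscle actin of activated stellate cells, read 9.16 there and at most 7.74 in the other 8 Sham arrays. Tnc, a matrix glycoprotein of wounds, read 6.71 against at most 5.19. The mean over 12 stellate cell and fibroblast markers, Acta2 among them, was 7.04 there and 6.60 to 6.74 in the other 3 Sham day 7 arrays. These markers did not all move alike. Lrat read 7.33 there and 7.35 to 7.75 in the other 3, and Reln 8.11 there and 8.18 to 8.34 in them. The mean over 6 cholangiocyte markers was 5.58 in that array, within the 5.48 to 5.64 of its group and below the 6.23 to 6.45 of BDL day 7. The mean over 6 mesothelial markers was 5.86, above the 5.17 to 5.38 of the other 3 Sham day 7 arrays. The part of these differences in the results was not tested. Every comparison was also computed without that array. It stood out by the levels of collagen genes themselves. Leaving it out therefore widens the differences of such genes and narrows their spread, so those p-values are no independent support.

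A group of 4 day 1 arrays (Sham replicates 1 and 3, BDL replicates 2 and 3) had a narrower spread of values, with an SD across genes of 1.55 to 1.58 against 1.64 to 1.70 in the other 25. In BDL day 21 replicate 2 the mean of 6 skeletal muscle genes was 6.35, the highest of all arrays. The mean over 6 hepatocyte markers lay between 11.97 and 12.44 in every array, although its members were not alike. Cyp2e1 was lower in BDL in all 4 comparisons with Sham, by -0.68, -0.74, -0.455 and -0.85. Ttr was lower at days 1, 3 and 7. Alb, Apoa1, Cps1 and Ass1 were not called, and Ass1 read only 6.58 to 8.06. The 12 stellate cell and fibroblast markers averaged 6.60 to 7.04 in Sham day 7, 7.11 to 7.51 in BDL day 7 and 7.23 to 7.87 in BDL day 21. Without Sham day 7 replicate 1 the Sham day 7 range was 6.60 to 6.74. Of these 12 markers 6 were higher at day 7 and 8 at day 21, with all arrays in use. All 5 tested cholangiocyte markers were higher at days 7 and 21. Of all genes tested 14.2% and 17.3% were higher at these days. Their part in the collagen results below was not tested.

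Over the course of ligation the count of collagen genes that were higher in BDL grew from 1 at day 1 to 4 at day 3, 9 at day 7 and 16 at day 21. At day 1 this was 1 higher and 1 lower of 39, against 8.52% and 4.8% of all genes tested. At day 3 it was 4 higher and 0 lower, against 6.47% and 3.69% (10.2% in all). At day 7 it was 9 higher and 1 lower, against 14.2% and 4.97%, and at day 21 it was 16 higher and 0 lower, against 17.3% and 7.9%. Counts at days 1 and 3 were small, and at days 7 and 21 the share of higher collagen genes lay above the background. With cyclic loess scaling the calls over all genes split into 1109 higher and 1011 lower in place of 1252 and 706 at day 1, and 1907 and 1152 in place of 2088 and 731 at day 7. The median difference over the 39 genes stayed near 0, at -0.01, 0.05, 0.03 and 0.05 for the 4 comparisons, beside 0.02, 0.02, 0.03 and 0.02 over all genes. The rise was carried by a subset, and 22 of 39 tested collagen genes were called in none of the 4 comparisons. Without Sham day 7 replicate 1 the counts were 1 higher and 1 lower at day 1 (background 8.61% and 4.93%) and 7 and 0 at day 3 (6.59% and 3.76%, 10.3% in all). They were 11 and 0 at day 7 (13.1% and 4.46%) and 17 and 0 at day 21 (16% and 7.13%, 23.2% in all). The 17 held the 16 genes higher at day 21 with all arrays, and a gene from the 22.

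**Figure D1:**
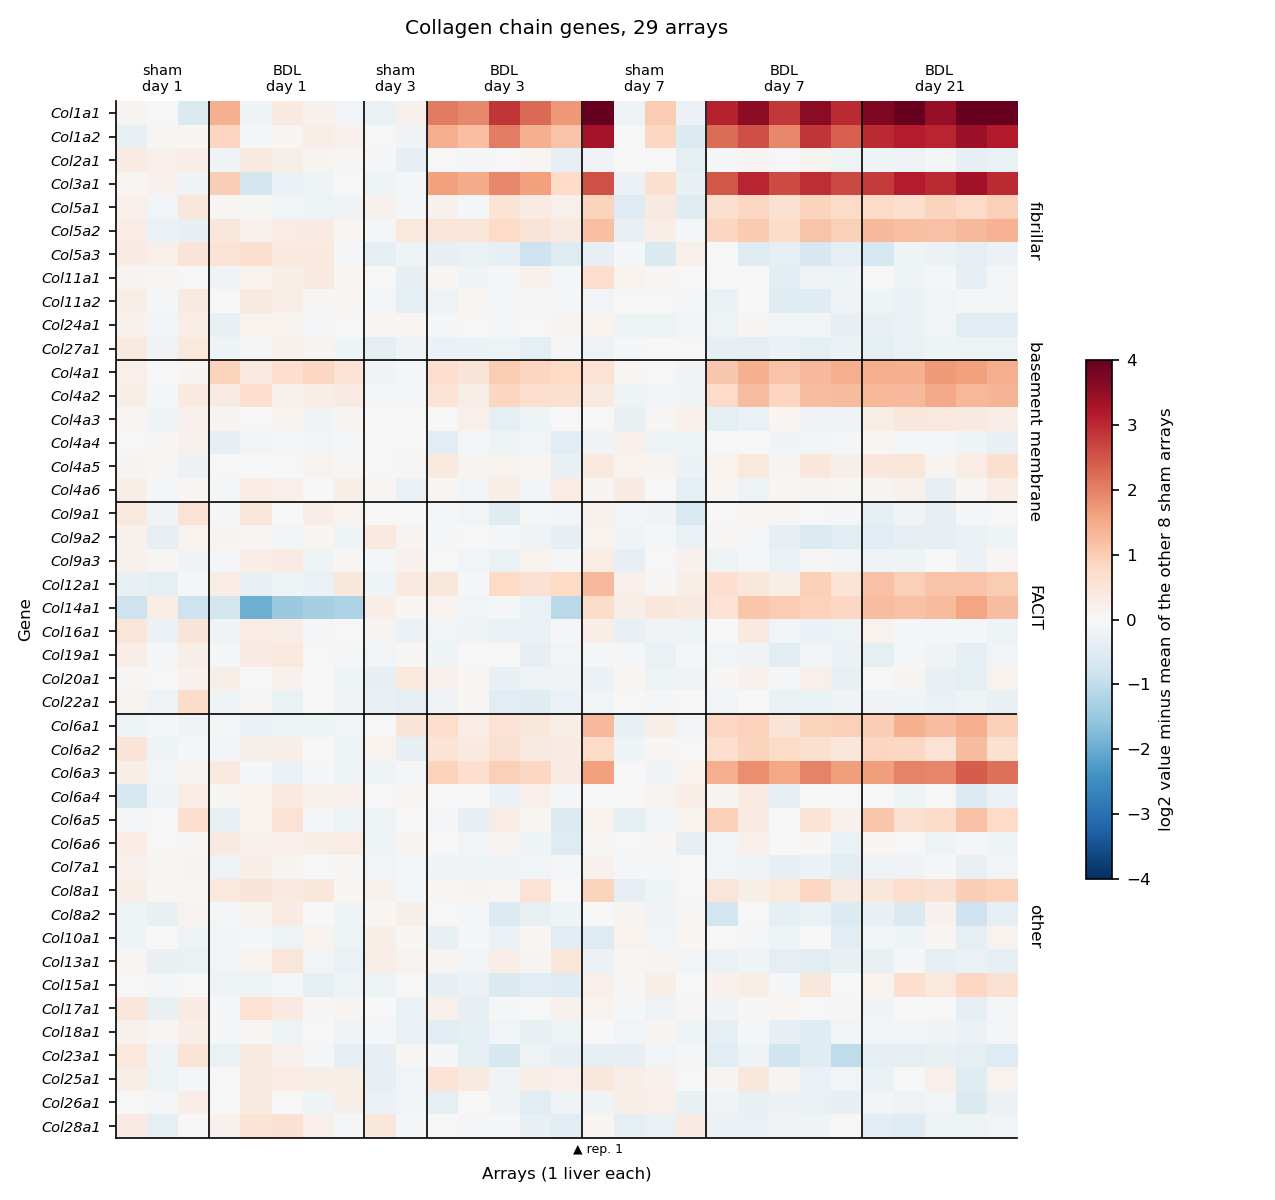
Each row is a collagen gene and each column an array, ordered by group; colour is the log2 value minus the mean of the 8 Sham arrays other than Sham day 7 replicate 1, and is saturated beyond 4. The fibrillar genes Col1a1, Col1a2 and Col3a1 are raised in BDL from day 3 on and in Sham day 7 replicate 1, where Col1a1 read 10.43.

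Type I and type III collagen, the main fibrils of scar, showed the largest rises. Col1a1 encodes the alpha 1 chain of type I collagen. In Sham mice it read 6.48, 6.39 and 5.80 at day 1, 6.12 and 6.56 at day 3, and 10.43, 6.17, 7.38 and 6.16 at day 7. In BDL mice it read 7.81, 6.21, 6.73, 6.55 and 6.27 at day 1, and 8.46, 8.30, 9.24, 8.65 and 8.11 at day 3. At day 7 BDL read 9.45, 9.96, 9.22, 9.99 and 9.36, and at day 21 10.11, 10.46, 9.88, 10.37 and 10.42. From day 3 on, every BDL array lay above every Sham array except Sham day 7 replicate 1, which was higher than all BDL arrays of day 7 and all but 1 of day 21. At day 1 the groups overlapped.

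The difference for Col1a1 at day 1 was 0.49 ± 0.55 (SE), with an adjusted p of 0.633. At day 3 it was 2.21 ± 0.63, a 4.63-fold rise (adjusted p = 0.0225). At day 7 it was 2.06 ± 0.51, 4.17-fold (adjusted p = 0.00394), and without replicate 1 of Sham day 7 it was 3.03 ± 0.31, 8.15-fold (adjusted p = 6.7e-08). The Sham day 7 mean was 7.53 ± 2.01 (SD, n = 4) with that array and 6.57 ± 0.70 (SD, n = 3) without it. At day 21 the difference was 2.71 ± 0.51 or 6.57-fold with all arrays and 3.68 ± 0.31 or 12.8-fold without that array. The day 7 call was lost when only the groups compared were fitted, and its adjusted p ran from 6.7e-08 to 0.0522 over 17 alternatives. The day 3 call was lost without either Sham day 3 array or BDL day 3 replicate 3, with a range of 0.000119 to 0.184 over 16.

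Col1a2 encodes the alpha 2 chain of the same fibril. Sham arrays read 5.74, 6.09 and 6.11 at day 1, 6.04 and 5.90 at day 3, and 9.36, 6.07, 6.87 and 5.50 at day 7. BDL arrays read 6.89, 5.95, 6.12, 6.30 and 6.22 at day 1, and 7.48, 7.26, 8.07, 7.45 and 7.17 at day 3. They read 8.28, 8.63, 7.96, 8.91 and 8.42 at day 7, and 9.04, 9.19, 9.09, 9.47 and 9.21 at day 21. Again only Sham day 7 replicate 1 overlapped the later BDL groups.

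The Col1a2 difference was 0.32 ± 0.45 at day 1 and 1.52 ± 0.52 at day 3, where the adjusted p was 0.0611. The day 3 arrays did not overlap, as was so for 15.1% of all genes with BDL higher. At day 7 Col1a2 rose by 1.49 ± 0.42, 2.81-fold (adjusted p = 0.0106), and at day 21 by 2.25 ± 0.42, 4.76-fold (adjusted p = 0.000136). Without Sham day 7 replicate 1, which also narrows the spread shared by all groups, the day 3 difference passed the threshold (adjusted p = 0.000498). The day 7 and day 21 differences were then 2.29 ± 0.24 and 3.05 ± 0.24, 4.89-fold and 8.3-fold. The day 7 call was lost without Sham day 7 replicate 2 or 4 and with only the groups compared (adjusted p from 1.04e-07 to 0.0969 over the alternatives). A further row for Col1a2, with a mean of 4.80, correlated with the row used at r = 0.90 over the 29 arrays, which share the group structure.

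Col3a1 encodes type III collagen, laid down early in repair. Sham arrays read 6.76, 6.84 and 6.53 at day 1, 6.47 and 6.64 at day 3, and 9.23, 6.45, 7.31 and 6.38 at day 7. BDL arrays read 7.66, 5.94, 6.40, 6.49 and 6.69 at day 1, and 8.33, 8.15, 8.59, 8.33 and 7.43 at day 3. They read 9.15, 9.71, 9.28, 9.63 and 9.31 at day 7, and 9.47, 9.82, 9.67, 10.02 and 9.66 at day 21. BDL and Sham did not overlap at day 3, and at day 21 every BDL array was above every Sham array, replicate 1 included. At day 7 that replicate overlapped the lowest BDL array.

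Col3a1 did not pass the test at day 1 (-0.08 ± 0.40, adjusted p = 0.936). It rose by 1.61 ± 0.46 at day 3, 3.06-fold (adjusted p = 0.0217), by 2.07 ± 0.37 at day 7, 4.21-fold (adjusted p = 0.000133), and by 2.38 ± 0.37 at day 21, 5.22-fold (adjusted p = 1.34e-05). Without Sham day 7 replicate 1 the day 7 difference was 2.70 ± 0.27, 6.51-fold, and the day 21 difference 3.01 ± 0.27, 8.08-fold.

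**Figure D2:**
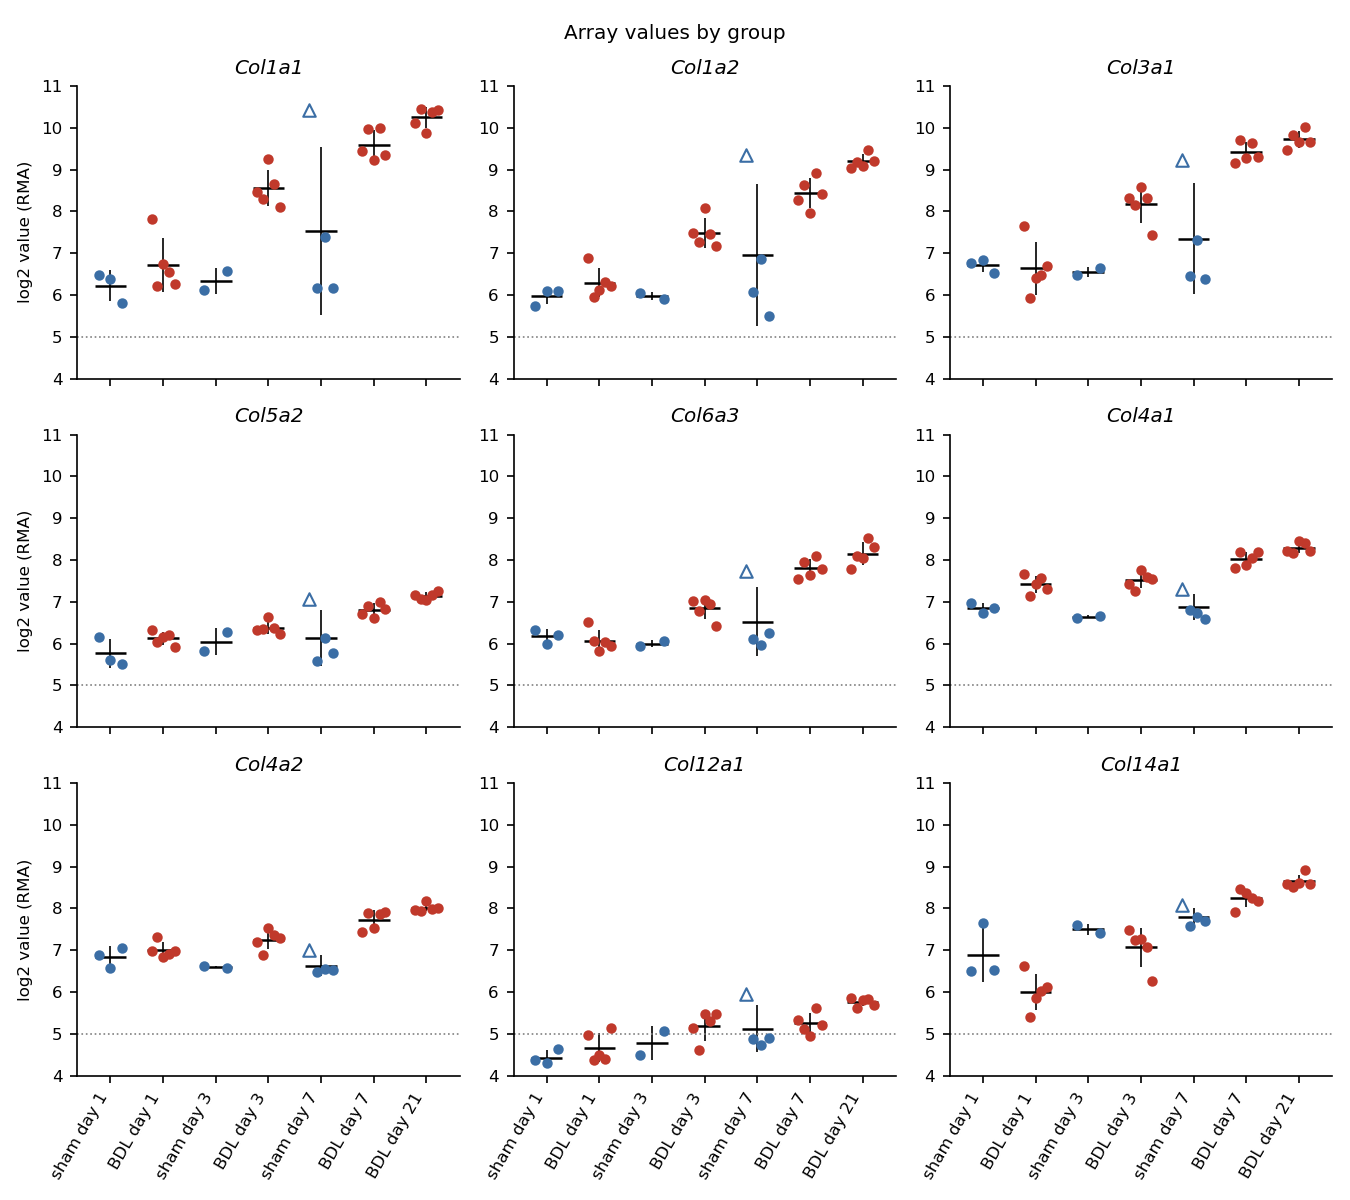
Log2 levels of 9 collagen genes on each array, by group; bars are group means, whiskers the SD, and the open triangle is Sham day 7 replicate 1. For Col1a1 the BDL arrays of day 7 lie between 9.22 and 9.99 and those of day 21 between 9.88 and 10.46, while that triangle lies at 10.43 and the other 3 Sham arrays of day 7 at 7.38 or lower.

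Type V collagen is built into type I fibrils and is known to set their diameter. Its alpha 1 chain gene Col5a1 read 6.73, 6.42 and 6.98 in Sham at day 1, 6.68 and 6.44 at day 3, and 7.41, 6.01, 6.88 and 6.05 at day 7. BDL read 6.60, 6.56, 6.42, 6.32 and 6.40 at day 1, 6.70, 6.49, 7.08, 6.87 and 6.73 at day 3, 7.21, 7.34, 7.13, 7.40 and 7.28 at day 7, and 7.30, 7.20, 7.42, 7.28 and 7.49 at day 21. Up to day 3 the groups overlapped, and later only Sham day 7 replicate 1 reached the BDL range. Col5a1 rose by 0.68 ± 0.19 at day 7 (adjusted p = 0.00875) and by 0.75 ± 0.19 at day 21 (adjusted p = 0.00312). Without that array the values were 0.96 ± 0.16 and 1.02 ± 0.16. A further row for the gene, with a mean of 4.79, did not follow the row used (r = -0.01). With the mean of both rows neither call held, with adjusted p-values of 0.117 and 0.0505.

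Col5a2, for the alpha 2 chain, read 6.17, 5.60 and 5.52 in Sham at day 1, 5.82 and 6.27 at day 3, and 7.06, 5.57, 6.13 and 5.76 at day 7. BDL read 6.32, 6.04, 6.15, 6.20 and 5.92 at day 1, 6.33, 6.35, 6.64, 6.38 and 6.22 at day 3, 6.71, 6.90, 6.60, 7.00 and 6.82 at day 7, and 7.16, 7.07, 7.04, 7.16 and 7.26 at day 21. Its Sham and BDL groups of days 7 and 21 overlapped through Sham day 7 replicate 1 and no other array. The rise was 0.67 ± 0.19 at day 7 (adjusted p = 0.0108) and 1.01 ± 0.19 at day 21 (adjusted p = 0.000164), or 0.98 ± 0.14 and 1.32 ± 0.14 without replicate 1 of Sham day 7. As for Col1a2, the day 7 call was lost without Sham day 7 replicate 2 or 4 and with only the groups compared (adjusted p from 1.46e-05 to 0.0801), and so was that of Col5a1.

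The other fibrillar genes gave no call between BDL and Sham. Col5a3, for a further type V chain, differed by between -0.18 and 0.05 in the 4 comparisons. It fell between BDL day 1, where it read 7.79, 7.87, 7.59, 7.60 and 7.18, and BDL day 3, where it read 6.90, 6.94, 6.89, 6.38 and 6.70. That fall of 0.84 ± 0.15 on the log2 scale (adjusted p = 0.000351) was not seen as a difference from Sham: the Sham arrays were also high at day 1 (7.53, 7.40 and 7.72) and read 6.85 and 7.03 at day 3. Col2a1 and Col11a2, chains known from cartilage, and Col24a1 and Col27a1 stayed within 0.25 of Sham in all 4 comparisons, and Col11a1, another cartilage chain, was not above 5 on any array. In all, 5 of 10 tested fibrillar genes were higher at day 7, against 14.2% of all genes, and the same 5 at day 21, against 17.3%.

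The proximal promoters of genes higher at both late days are shown to set their letters side by side. RefSeq promoter windows of assembly GRCm38.p6 were matched to 35 of the 44 genes by symbol. The stretch from 110 bases before to 10 bases after the annotated start is printed 5′ to 3′ on the gene's strand. Capitals mark short motifs found by exact match on either strand. The TATA box was searched as TATAAA, which reads TTTATA on the opposite strand. The next motif was CCAAT, which reads ATTGG on the opposite strand. The GC box was searched as GGGCGG, which reads CCGCCC on the opposite strand. Col1a2 lies at chr6:4505508-4505627 on the plus strand, Col3a1 at chr1:45311428-45311547 on the plus strand, Col5a1 at chr2:27886315-27886434 on the plus strand and Col6a3 at chr1:90843962-90844081 on the minus strand.
Col1a2: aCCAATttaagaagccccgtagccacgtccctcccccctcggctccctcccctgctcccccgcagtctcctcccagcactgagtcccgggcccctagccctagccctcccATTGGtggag
Col3a1: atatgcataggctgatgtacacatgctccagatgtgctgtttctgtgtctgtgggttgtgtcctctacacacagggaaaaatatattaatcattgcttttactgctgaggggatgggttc
Col5a1: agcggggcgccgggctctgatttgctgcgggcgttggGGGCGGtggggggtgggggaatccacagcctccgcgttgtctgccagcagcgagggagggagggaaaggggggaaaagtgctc
Col6a3: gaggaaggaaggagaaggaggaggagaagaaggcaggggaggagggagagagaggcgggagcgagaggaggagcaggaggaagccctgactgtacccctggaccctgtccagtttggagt

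These stretches differ in base makeup. Col1a2 holds the CCAAT box on both strands, Col5a1 holds the GC box, and Col3a1 and Col6a3 hold none of these letters in the printed stretch. In the windows of 300 bases, the TATA box was found in 5 of 35 collagen genes, the CCAAT box in 13 and the GC box in 22, beside 13.6%, 37.4% and 35.7% of 32851 promoters in the table. Of the 11 genes higher at day 21 that have a window, 1 held the TATA box, 3 the CCAAT box and 7 the GC box, and of 19 other tested genes 3, 8 and 13 did. The TATA and CCAAT letters can overlap their own reverse complements, and a promoter was counted a single time for each motif. A match is a description of the letters only.

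Among type IV collagen genes, Col4a1 was higher in BDL from day 1 on and Col4a2 from day 3 on. Col4a1 and Col4a2 encode the chains of the common basement membrane network, which also lines liver vessels and ducts. Their annotated transcripts start on opposite strands and overlap by 22 bases. These bases, chr8:11312805-11312826 of GRCm38.p6, are printed on the strand of Col4a2, with a GC box in capitals.
Col4a2 and Col4a1: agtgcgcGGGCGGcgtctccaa

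Col4a1 read 6.96, 6.73 and 6.85 in Sham at day 1, 6.62 and 6.66 at day 3, and 7.31, 6.81, 6.74 and 6.60 at day 7. BDL read 7.65, 7.13, 7.42, 7.57 and 7.30 at day 1, 7.42, 7.25, 7.75, 7.59 and 7.53 at day 3, 7.81, 8.18, 7.88, 8.05 and 8.19 at day 7, and 8.20, 8.16, 8.45, 8.40 and 8.21 at day 21. In all 4 comparisons the lowest BDL array was above the highest Sham array, Sham day 7 replicate 1 included. Col4a1 rose by 0.57 ± 0.14 at day 1 (1.48-fold, adjusted p = 0.00725) and by 0.87 ± 0.16 at day 3 (1.83-fold, adjusted p = 0.000659). The rise was 1.16 ± 0.13 at day 7 (2.23-fold, adjusted p = 2.78e-07) and 1.42 ± 0.13 at day 21 (2.67-fold, adjusted p = 3.89e-09). It was the only collagen gene higher at day 1, a call lost with only the groups compared (adjusted p from 0.000114 to 0.0571 over the alternatives). Leaving out Sham day 7 replicate 1 gave later values of 1.31 ± 0.12 and 1.57 ± 0.12.

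Col4a2 read 6.90, 6.57 and 7.06 in Sham at day 1, 6.61 and 6.58 at day 3, and 7.00, 6.48, 6.54 and 6.52 at day 7. BDL read 6.98, 7.32, 6.83, 6.90 and 6.98 at day 1, 7.19, 6.90, 7.53, 7.36 and 7.29 at day 3, 7.43, 7.89, 7.52, 7.88 and 7.91 at day 7, and 7.97, 7.94, 8.18, 7.99 and 8.02 at day 21. At day 1 the groups overlapped and the difference was 0.16 ± 0.15 (adjusted p = 0.544), unlike for its neighbour, though the difference between the genes was not tested. From day 3 on the groups did not overlap. Col4a2 rose by 0.66 ± 0.17 at day 3 (adjusted p = 0.0118), by 1.09 ± 0.14 at day 7 (2.13-fold, adjusted p = 1.16e-06) and by 1.39 ± 0.14 at day 21 (2.62-fold, adjusted p = 1.25e-08). The later values were 1.21 ± 0.14 and 1.51 ± 0.14 without Sham day 7 replicate 1.

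The remaining type IV chains are known from the membranes of kidney glomerulus, lung and skin. Col4a3 read between 4.71 and 5.56 over all arrays, close to the filter level of 5. Its BDL day 21 arrays read 5.31, 5.56, 5.50, 5.44 and 5.35, and its Sham day 7 arrays 5.11, 4.79, 5.15 and 5.30, without overlap. That rise was 0.35 ± 0.12 (adjusted p = 0.0267), and the call was lost without Sham day 7 replicate 2, BDL day 21 replicate 2 or BDL day 21 replicate 3, and the adjusted p ran from 0.00509 to 0.151 over the alternatives. With Sham day 7 replicate 1 left out the rise was 0.35 ± 0.13 (adjusted p = 0.0442). Col4a5 and Col4a6 were not called with all arrays in use, with differences of up to 0.30 and 0.18 in size. Col4a4 exceeded 5 on 2 arrays and was not tested.

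**Figure D3:**
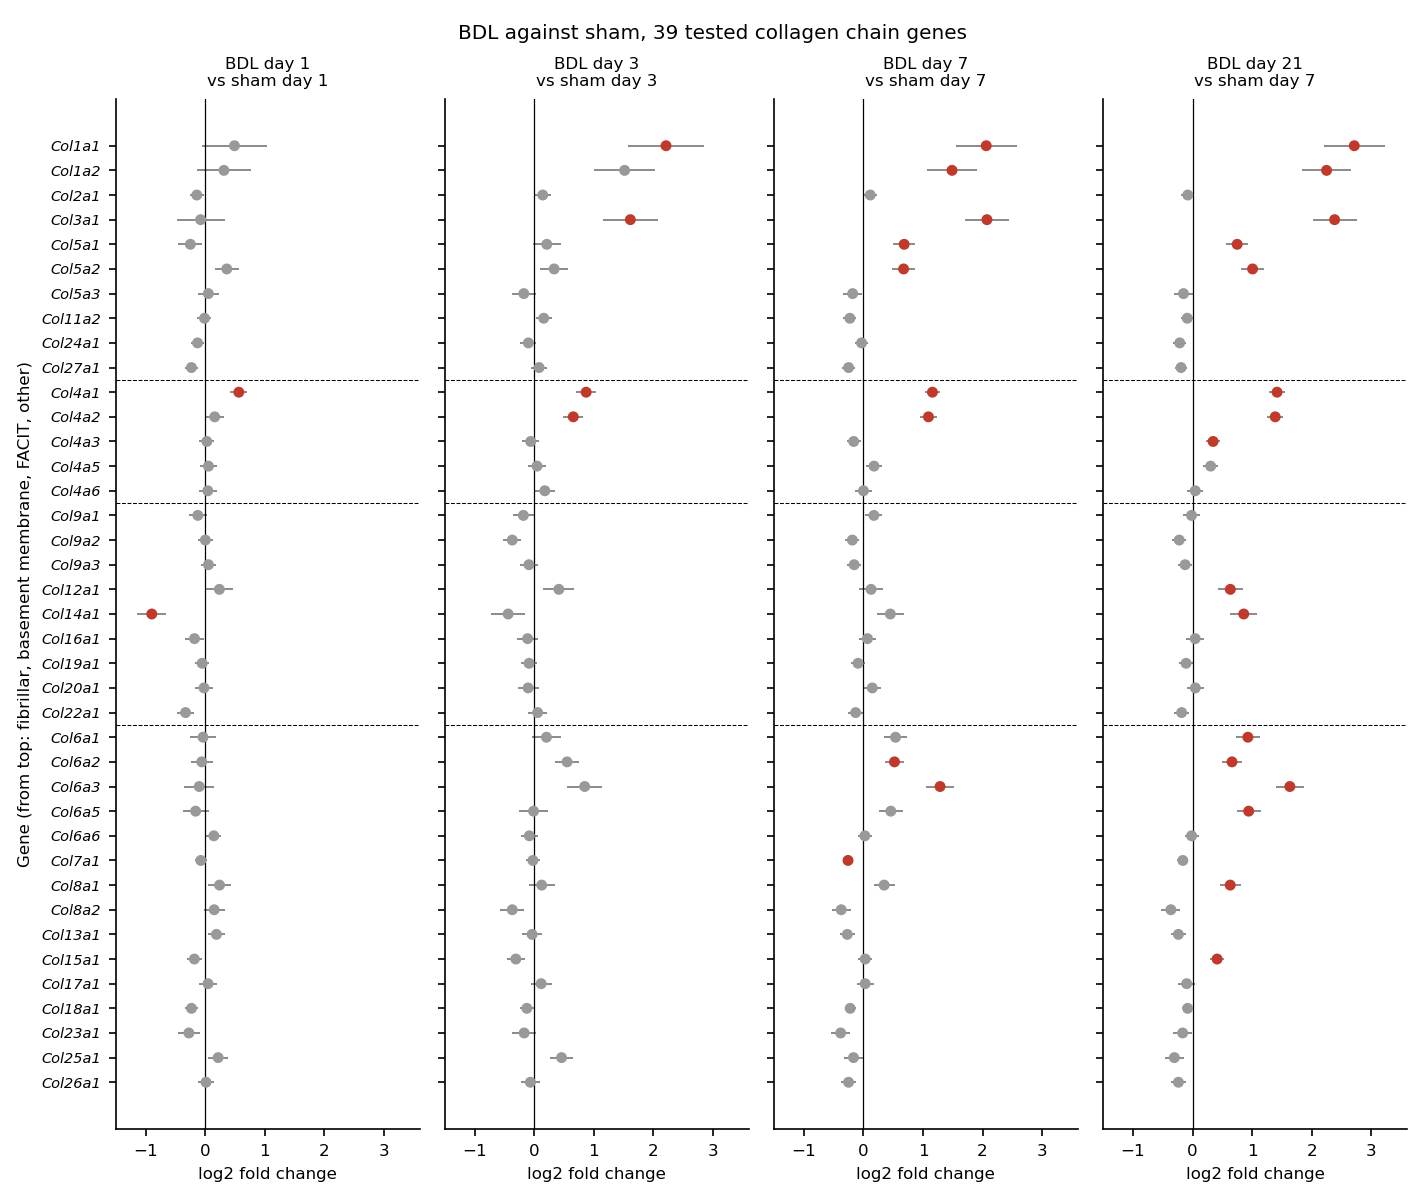
Log2 differences with their SE for the 39 tested collagen genes in the comparisons of BDL with Sham at days 1, 3 and 7 and of BDL day 21 with Sham day 7; red points passed an adjusted p of 0.05. Col1a1, Col3a1, Col4a1 and Col4a2 are red at days 3, 7 and 21, and 16 genes are red on the right at day 21, none of them to the left of 0.

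The FACIT genes split into few that moved and many that did not. Col14a1 encodes a chain that binds fibrils and decorin. It was the sole collagen gene lower in BDL at day 1. Sham read 6.51, 7.65 and 6.53 at day 1, 7.60 and 7.41 at day 3, and 8.09, 7.57, 7.79 and 7.70 at day 7. BDL read 6.61, 5.40, 5.86, 6.03 and 6.11 at day 1, 7.49, 7.24, 7.27, 7.07 and 6.27 at day 3, 7.91, 8.47, 8.38, 8.26 and 8.19 at day 7, and 8.59, 8.52, 8.62, 8.93 and 8.58 at day 21. The lowest BDL levels were at day 1 and the highest at day 21, and at day 21 no BDL array overlapped Sham day 7.

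At day 1 Col14a1 fell by 0.89 ± 0.25 on the log2 scale (adjusted p = 0.0144), and at day 21 it rose by 0.86 ± 0.23, 1.81-fold (adjusted p = 0.00525), or by 0.96 ± 0.25 without Sham day 7 replicate 1. At days 3 and 7 the differences were -0.44 ± 0.28 and 0.45 ± 0.23, which did not pass (adjusted p = 0.388 and 0.177). Within BDL it rose by 1.07 ± 0.21 from day 1 to day 3 and by 1.17 ± 0.21 from day 3 to day 7. The Sham groups moved as well, with Sham day 1 lower than Sham day 7 by 0.89 ± 0.26 (adjusted p = 0.0466), a call lost in 11 of 16 alternatives, among them that without Sham day 7 replicate 1 (adjusted p = 0.101). The Sham day 1 arrays of narrow spread read 6.51 and 6.53 and the other 7.65, and the BDL day 1 arrays of narrow spread read 5.40 to 5.86 and the others 6.03 to 6.61. The day 1 call was lost without Sham day 1 replicate 2, with array weights and with only the groups compared, and the adjusted p ran from 1.29e-05 to 0.147 over the alternatives. The means of 6 endothelial markers were 7.18 to 7.66 in BDL day 1, against 8.20 to 9.01 on all later days. In Sham day 1 they were 7.60 to 8.41, the highest within the later range. Kdr, Stab2 and Clec4g were called lower in BDL at day 1, while Lyve1, Pecam1 and Cdh5 were not called. The means of 12 stellate cell and fibroblast markers were 6.24 to 6.505 in BDL day 1 and 6.18 to 6.55 in Sham day 1. On later days they were 6.56 to 7.87. Of these 12, only Reln was called at day 1, lower in BDL. The part of these markers in the result was not tested.

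Col12a1, a FACIT chain of dense connective tissue, read 4.37, 4.29 and 4.63 in Sham at day 1, 4.50 and 5.07 at day 3, and 5.96, 4.89, 4.73 and 4.91 at day 7. BDL read 4.96, 4.37, 4.49, 4.40 and 5.13 at day 1, 5.14, 4.61, 5.47, 5.30 and 5.46 at day 3, 5.34, 5.13, 4.95, 5.61 and 5.22 at day 7, and 5.85, 5.61, 5.80, 5.82 and 5.69 at day 21. All 5 BDL day 21 arrays were above 5 and above 3 of 4 Sham day 7 arrays, with replicate 1 the highest of all. The day 21 rise was 0.63 ± 0.21 (adjusted p = 0.0247), and 0.91 ± 0.19 without replicate 1 (adjusted p = 0.000518). Since 3 of 4 Sham day 7 arrays lay under the filter level of 5, its size is uncertain. Leaving out any of the other 3 Sham day 7 arrays ended the call, and over all alternatives the adjusted p ran from 0.000265 to 0.11. The other 7 FACIT genes, Col9a1, Col9a2, Col9a3, Col16a1, Col19a1, Col20a1 and Col22a1, passed in none of the 4 comparisons, and the largest size among them was 0.37, for Col9a2. Of the 9 FACIT genes limma called 0 at day 7, where 0 also had an unadjusted p under 0.05, and 2 at day 21, against 17.3% of all genes higher, a share near the background.

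Type VI collagen forms beaded filaments between cells and fibrils. Col6a3 encodes its largest chain. Sham read 6.32, 5.99 and 6.20 at day 1, 5.94 and 6.05 at day 3, and 7.74, 6.10, 5.97 and 6.25 at day 7. BDL read 6.51, 6.06, 5.82, 6.03 and 5.94 at day 1, 7.03, 6.78, 7.04, 6.94 and 6.43 at day 3, 7.54, 7.96, 7.64, 8.10 and 7.77 at day 7, and 7.78, 8.08, 8.05, 8.53 and 8.30 at day 21. The day 3 groups did not overlap, and at day 7 only Sham replicate 1 reached into the BDL range. Col6a3 rose by 1.29 ± 0.23 at day 7 (2.44-fold, adjusted p = 0.000181) and by 1.63 ± 0.23 at day 21 (3.1-fold, adjusted p = 4.44e-06). At day 3 the difference of 0.85 ± 0.29 had an adjusted p of 0.0648, and 0.00374 without Sham day 7 replicate 1. The day 7 and day 21 values were 1.70 ± 0.17 and 2.04 ± 0.17 without it.

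Col6a1 and Col6a2 encode the other main chains and are neighbours in the genome. Col6a1 read 6.60, 6.68 and 6.62 in Sham at day 1, 6.73 and 7.28 at day 3, and 8.04, 6.47, 6.99 and 6.66 at day 7. BDL read 6.70, 6.50, 6.56, 6.58 and 6.63 at day 1, 7.47, 7.05, 7.33, 7.21 and 7.01 at day 3, 7.57, 7.69, 7.28, 7.66 and 7.70 at day 7, and 7.75, 8.18, 8.00, 8.21 and 7.71 at day 21. Sham day 7 replicate 1 was above all BDL day 7 arrays and the other 3 below all of them. The Col6a1 difference of 0.54 ± 0.20 at day 7 had an adjusted p of 0.052, and 6.12e-05 without replicate 1, where it was 0.87 ± 0.14. At day 21 Col6a1 rose by 0.93 ± 0.20 (adjusted p = 0.000612), or by 1.26 ± 0.14 without replicate 1. A further row for Col6a1, with a mean of 5.23, followed the row used only in part (r = 0.54). The day 21 call was kept in all 17 alternatives, the mean of both rows among them.

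Col6a2 read 6.61, 5.95 and 6.08 in Sham at day 1, 6.25 and 5.78 at day 3, and 6.88, 5.94, 6.19 and 6.12 at day 7. BDL read 6.00, 6.36, 6.36, 6.13 and 5.93 at day 1, 6.67, 6.51, 6.72, 6.48 and 6.45 at day 3, 6.78, 7.02, 6.88, 6.77 and 6.57 at day 7, and 6.99, 6.96, 6.69, 7.37 and 6.72 at day 21. Sham day 7 replicate 1 overlapped the BDL arrays of days 7 and 21. Col6a2 rose by 0.52 ± 0.17 at day 7 (adjusted p = 0.0264) and by 0.66 ± 0.17 at day 21 (adjusted p = 0.0036), and the day 7 call was lost in 6 of 17 alternatives. Both rises were larger without that array, at 0.72 ± 0.16 and 0.86 ± 0.16, and the day 3 difference of 0.55 ± 0.18 then passed (adjusted p = 0.0494).

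Col6a5, a chain that can take the place of Col6a3's product, was low in most arrays. Sham read 4.77, 4.79 and 5.48 at day 1, 4.63 and 4.80 at day 3, and 4.95, 4.41, 4.69 and 4.96 at day 7. BDL read 4.53, 4.97, 5.41, 4.77 and 4.60 at day 1, 4.75, 4.48, 5.12, 4.89 and 4.27 at day 3, 5.76, 5.15, 4.84, 5.36 and 4.98 at day 7, and 5.93, 5.41, 5.55, 6.00 and 5.60 at day 21. Only at day 21 was every BDL array above 5 and above Sham day 7. The rise was 0.94 ± 0.20 (adjusted p = 0.000707), or 1.01 ± 0.22 without Sham day 7 replicate 1, and was kept in all 16 alternatives; since Sham lay under the filter level, its size is uncertain. Its neighbour Col6a6 was not called against Sham, and Col6a4 was not above 5 on any array. In all, 4 of 5 tested type VI genes were higher at day 21, against 17.3% of all genes, with a median difference of 0.93.

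The rest of the other class held smaller changes. Col8a1, a network-forming chain known from vessel walls, read 5.51, 5.35 and 5.36 in Sham at day 1, 5.45 and 5.18 at day 3, and 6.18, 4.96, 5.11 and 5.29 at day 7. BDL read 5.69, 5.79, 5.67, 5.72 and 5.37 at day 1, 5.36, 5.38, 5.36, 5.85 and 5.26 at day 3, 5.75, 5.51, 5.68, 6.09 and 5.62 at day 7, and 5.74, 5.99, 5.89, 6.27 and 6.20 at day 21. Apart from Sham day 7 replicate 1 the groups of days 7 and 21 did not overlap. The day 21 rise was 0.63 ± 0.17 (adjusted p = 0.00723). The day 7 difference was 0.35 ± 0.17 (adjusted p = 0.174), and 0.61 ± 0.14 without replicate 1 (adjusted p = 0.00278). Without Sham day 7 replicate 2 the day 21 call was lost, and the adjusted p ran from 2.59e-05 to 0.0513 over the alternatives.

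Col15a1 and Col18a1 encode multiplexins, which sit at basement membranes, and Col15a1 is known as a marker of portal fibroblasts. Col15a1 read 5.75, 5.69 and 5.80 in Sham at day 1, 5.58 and 5.76 at day 3, and 5.98, 5.83, 6.01 and 5.79 at day 7. BDL read 5.56, 5.57, 5.72, 5.41 and 5.57 at day 1, 5.44, 5.54, 5.20, 5.36 and 5.28 at day 3, 5.96, 6.03, 5.69, 6.23 and 5.78 at day 7, and 5.92, 6.46, 6.21, 6.59 and 6.40 at day 21. Only 1 BDL day 21 array fell within the Sham day 7 range. Col15a1 rose by 0.41 ± 0.12 at day 21 (adjusted p = 0.00987), or by 0.44 ± 0.13 without Sham day 7 replicate 1, and within BDL it rose from day 3 to day 7 by 0.57 ± 0.11 (adjusted p = 0.00206).

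Col18a1, the source of endostatin and known as a product of hepatocytes, passed in none of the 4 comparisons. Sham read 9.95, 9.81 and 10.05 at day 1, 9.73 and 9.52 at day 3, and 9.74, 9.67, 9.87 and 9.61 at day 7. BDL read 9.73, 9.81, 9.59, 9.79 and 9.63 at day 1, 9.34, 9.43, 9.65, 9.48 and 9.58 at day 3, 9.43, 9.69, 9.45, 9.29 and 9.66 at day 7, and 9.68, 9.66, 9.63, 9.53 and 9.72 at day 21. The differences were -0.23 ± 0.10, -0.12 ± 0.12, -0.22 ± 0.09 and -0.08 ± 0.09, with adjusted p-values of 0.152, 0.596, 0.106 and 0.583.

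Col7a1, the chain of anchoring fibrils, was the sole collagen gene called lower at day 7 in the test as described. BDL day 7 read 5.46, 5.38, 5.23, 5.32 and 5.12, and Sham day 7 read 5.73, 5.47, 5.50 and 5.54. The groups did not overlap, although the nearest arrays read 5.46 and 5.47. It fell by 0.26 ± 0.09 on the log2 scale (adjusted p = 0.0432). The call was lost in 9 of 16 alternatives, and without Sham day 7 replicate 1 the difference was -0.20 ± 0.10 (adjusted p = 0.16). The count of lower collagen genes at day 7 depended on the setting: it was 7, with 12 higher, with array weights, and 7, with 11 higher, with all 9 Sham arrays as controls. With cyclic loess scaling 8 were higher and 2 lower. Over all genes tested, 2738 were higher and 1191 lower with array weights (26.7% called). All 9 Sham arrays gave 3117 and 1258 (29.8%), and cyclic loess 1907 and 1152 (20.8%).

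Among the 22 tested genes called in no comparison with Sham when all arrays were used, the largest difference in size was 0.46, for Col25a1. Of these 22 genes 15 had a mean over all arrays under 6. At that level a small change on a few arrays can be hard to tell from background. Genes not tested were Col4a4, Col6a4, Col10a1, Col11a1 and Col28a1, with highest array values of 5.07, 4.76, 4.53, 4.92 and 4.76.

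Steps within the BDL series compare successive days without use of the Sham arrays except for the shared spread. From day 1 to day 3, 6 of 39 were higher (Col1a1, Col1a2, Col3a1, Col6a1, Col6a3 and Col14a1) and 2 lower (Col5a3 and Col6a6), against 12% and 6.44% of all genes. Both shares were near the background. Col1a1 rose by 1.84 ± 0.48 and Col3a1 by 1.53 ± 0.35. The call for Col6a1 was lost in 4 of 20 alternatives, among them the mean of its rows. Without the 4 day 1 arrays of narrow spread, 4 were called: Col1a1, Col1a2, Col3a1, Col6a1 and Col6a3 were lost and Col6a2 was gained. With Sham day 7 replicate 1 left out, 8 were higher and 2 lower, with Col6a2 and Col12a1 gained, against 12% and 6.47% of all genes.

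From day 3 to day 7, 6 of 39 were higher (Col3a1, Col4a1, Col4a2, Col6a3, Col14a1 and Col15a1) and 1 was lower, the transmembrane chain gene Col13a1, against 4.6% and 1.1% of all genes. Col3a1 rose by 1.25 ± 0.35 (adjusted p = 0.0299) and Col6a3 by 0.96 ± 0.22 (adjusted p = 0.0083). The call for Col3a1 was lost in 5 of 18 alternatives and that for Col4a2 in 7, while that for Col6a3 was kept in all 18. Col13a1 fell by 0.48 ± 0.12 on the log2 scale (adjusted p = 0.0175). Col1a1 differed by 1.04 ± 0.48, which did not pass (adjusted p = 0.224), but passed without Sham day 7 replicate 1 (adjusted p = 0.0175). Without that array 11 were called, against 5.95% of all genes, and without BDL day 3 replicate 5 it was 4.

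From day 7 to day 21 only Col4a3 was called, higher by 0.51 ± 0.11 (adjusted p = 0.0165), against 0.401% of all genes higher and 0.463% lower. The call was lost without BDL day 7 replicate 1, BDL day 21 replicate 2 or BDL day 21 replicate 3. All 16 genes higher at day 21 against Sham had a mean at BDL day 21 above that of BDL day 7. Of them, 12 had BDL means that rose in the order of the days. For Col1a1 these means were 6.71 ± 0.65, 8.55 ± 0.43, 9.60 ± 0.36 and 10.25 ± 0.25 (SD, n = 5 each). The 16 genes were chosen by their high BDL day 21 levels, which favours both counts, so neither count can show a continued rise. Without that choice, 28 of the 39 tested collagen genes had a higher mean at BDL day 21 than at BDL day 7. No share of all genes stands beside these counts.

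The difference between BDL and Sham was more positive at day 7 than at day 1 for 5 of 39 collagen genes, against 3.48% of all genes higher and 0.857% lower (4.33% in all). The difference of the effects was 2.15 ± 0.54 for Col3a1 (adjusted p = 0.0213), 1.39 ± 0.35 for Col6a3 (adjusted p = 0.0199) and 1.35 ± 0.34 for Col14a1 (adjusted p = 0.0193). It was 0.93 ± 0.20 for Col4a2 (adjusted p = 0.00738) and 0.93 ± 0.28 for Col5a1 (adjusted p = 0.0497). The call for Col5a1 was lost in 19 of 26 alternatives, with an adjusted p from 0.00218 to 0.445, against 4 for Col3a1, 3 for Col6a3 and 1 each for Col4a2 and Col14a1. For Col14a1 the difference had turned from -0.89 at day 1 to 0.45 at day 7, the latter not called. Without Sham day 7 replicate 1 the effect was more positive at day 7 for 10 collagen genes, against 3.57% of all genes. Col1a1 was among them at 2.53 ± 0.44 (adjusted p = 0.00145). Without the 4 day 1 arrays of narrow spread it was more positive for 1. Between days 7 and 3 the effects differed by the test for 0 collagen genes and 0.0544% of all genes (0.0408% higher and 0.0136% lower) in limma. At an unadjusted p under 0.05 these were 3 of 39 and 1188 of 14699.

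**Figure D4:**
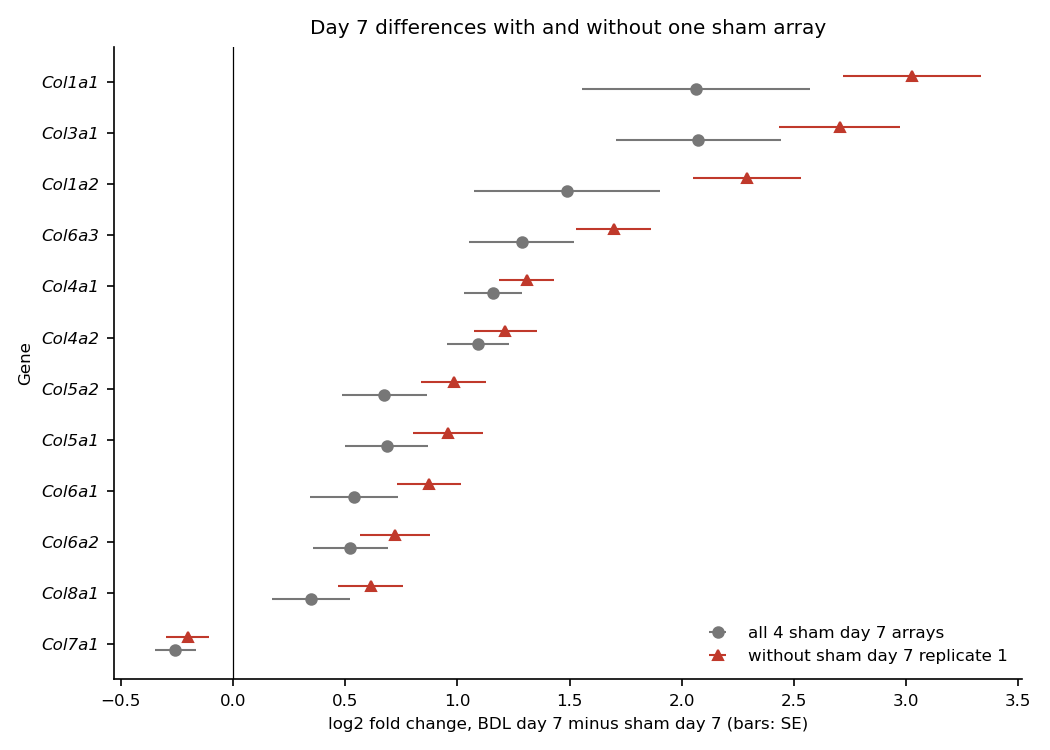
Log2 differences of BDL day 7 against Sham day 7 for 12 collagen genes, with all 4 Sham arrays and without Sham replicate 1; bars are the SE. Col1a1 moves from 2.06 to 3.03 and Col1a2 from 1.49 to 2.29, while Col4a1 moves from 1.16 to 1.31.

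The Sham groups were compared to learn how far the controls moved with time. Sham day 1 against Sham day 7 gave 1 collagen gene, Col14a1, lower at day 1, with 4.11% of all genes called and 2.96% lower. Sham day 3 against Sham day 7 gave 0 collagen genes and 0% of all genes in limma, and 1 of 39 and 627 of 14699 at an unadjusted p under 0.05. With 2 Sham arrays at day 3, this comparison and the day 3 effect of ligation rest on few animals. In the latter, leaving out either Sham day 3 array left only Col4a1 called. At day 7, leaving out Sham replicate 2 left 6 collagen genes called and leaving out replicate 4 left 5.

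Genes that make, process and bind collagen were taken from a list of 51, of which 46 were measured and 42 tested. At day 1, 4 were higher and 1 lower, against 8.52% and 4.8% of all genes, a share near the background. At day 3, 6 were higher and 0 lower, against 6.47% and 3.69%. At day 7, 19 and 1 were called, against 14.2% and 4.97%, and at day 21, 24 and 0, against 17.3% and 7.9%. The medians of the 42 differences were 0.05, 0.30, 0.40 and 0.44, beside the 0.02, 0.02, 0.03 and 0.02 of all genes. With Sham day 7 replicate 1 left out the counts were 19 and 0 at day 7 (background 13.1% and 4.46%) and 22 and 0 at day 21 (16% and 7.13%).

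At day 21 Itga2, the alpha 2 integrin chain, rose by 2.38, and Ddr1, a receptor tyrosine kinase that binds collagen, by 2.28. Sham day 7 arrays read 4.47, 4.61, 4.48 and 5.17 for Itga2, mostly under the filter level of 5, so the size of its rise is uncertain. Both are known from epithelial cells, and cholangiocyte markers rose in the same mice; their part in the result was not tested. Lair1, an inhibitory collagen receptor of leukocytes, rose by 1.53. Lum, which codes for lumican, a proteoglycan on fibrils, rose by 2.16. Without Sham day 7 replicate 1 the order changed, with Lum at 2.49, Ddr1 at 2.35 and Itga2 at 2.31. The cross-linking enzymes Loxl1 and Lox rose by 1.42 and 1.32, or by 1.64 and 1.67 without that array. Lox read 5.74 in it and 4.48, 4.35 and 4.17 in the other Sham day 7 arrays, so the size of its rise is uncertain too. At day 7 the 6 called with the largest change were Itga2 at 1.89, Ddr1 at 1.66, Lum at 1.48, Lair1 at 1.31, Sparc at 1.21 and Serpinh1 at 0.98. They were 1.82, 1.74, 1.80, 1.31, 1.51 and 1.37 without Sham day 7 replicate 1. Sparc is a matrix protein that binds collagen and Serpinh1 is the collagen chaperone of the endoplasmic reticulum.

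At day 3 the largest were Lum at 1.03, Lox at 0.97, Itga2 at 0.91, Ddr1 at 0.91, the prolyl hydroxylase gene P3h1 at 0.64 and the collagen glycosyltransferase gene Colgalt1 at 0.62. Sham day 3 arrays read 4.13 and 4.26 for Lox and 5.53 and 4.53 for Itga2. These lay near or under the filter level, so the sizes of these 2 rises are uncertain. At day 1 P3h1 at 0.80, Ddr1 at 0.65, Tmem38b at 0.47 and Colgalt1 at 0.46 were higher, and Bmp1, the procollagen C-proteinase, fell by 0.50 on the log2 scale. Ppib, a helper of collagen folding, and the main prolyl 4-hydroxylase gene P4ha1 passed in no comparison, with day 21 differences of -0.09 and 0.10.

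**Figure D5:**
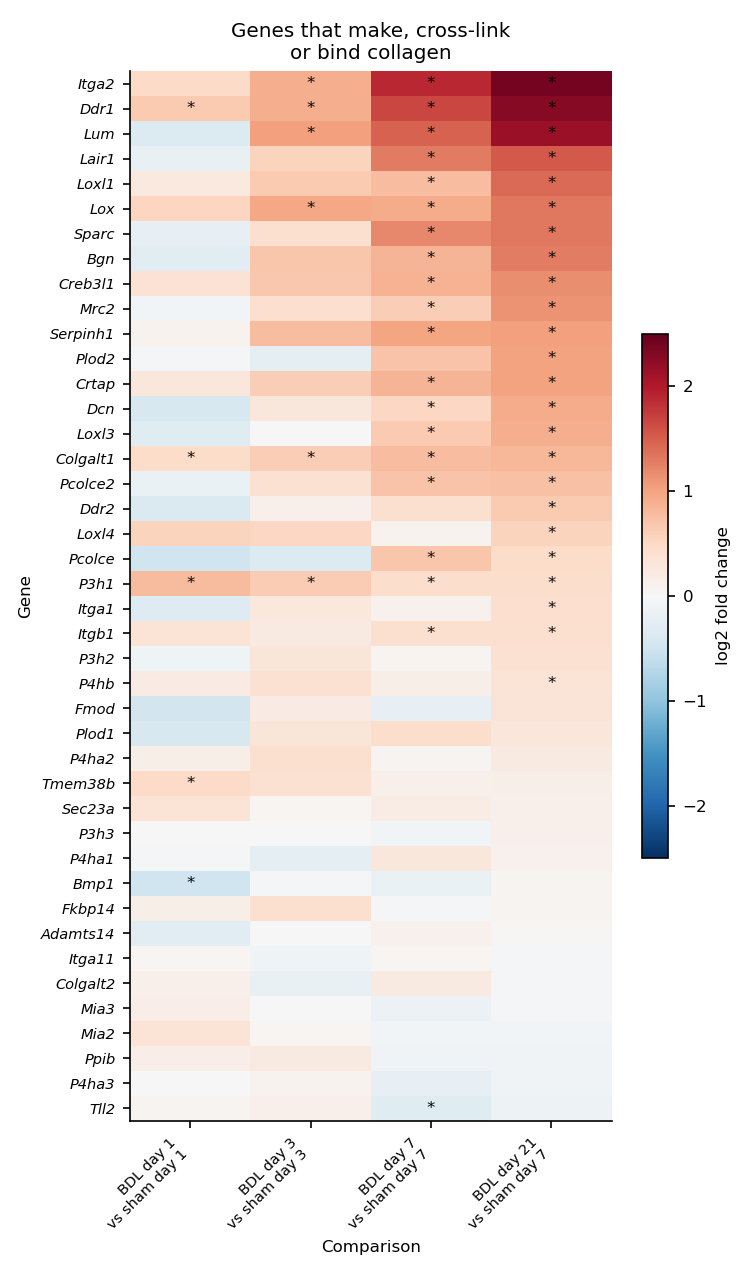
Log2 differences of BDL against Sham for 42 genes that make, process or bind collagen, in 4 comparisons; stars mark an adjusted p under 0.05. At day 21 Itga2 stands at 2.38, Ddr1 at 2.28 and Lum at 2.16, and 24 genes are starred there.

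Collagen genes that lie next to each other gave 8 pairs in the RefSeq gene order. In the pairs of Col4a1 with Col4a2 and of Col3a1 with Col5a2 both were higher at days 7 and 21. In the pair of Col6a2 with Col6a1 both were higher at day 21 and Col6a2 alone at day 7, where Col6a1 had an adjusted p of 0.052. In the pairs of Col4a4 with Col4a3, Col6a6 with Col6a5 and Col6a5 with Col6a4, only Col4a3 and Col6a5 were called at day 21, while Col4a4 and Col6a4 were not tested. The pairs of Col9a1 with Col19a1 and Col4a6 with Col4a5 gave no call.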

How the data were processed

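RNA of 29 livers was measured on Affymetrix arrays. The deposited values are log2 expression values, which the authors made with oligo 1.52.0 and RMA (background correction, quantile normalization and probe summary), per the submitters' processing notes. Gene names come from the annotation of Mouse Gene 2.0 ST, whose identifiers the rows carry, although another Affymetrix design (Mouse Genome 430 2.0) is named per the labels' protocols. Of 41345 rows 23521 had 1 symbol. A RefSeq table of GRCm38.p6, matched on gene ID, renamed 0 of the collagen genes. The sets of arrays that went through RMA jointly are not known from the labels.

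Groups were taken from the treatment and time labels; replicate numbers are accession order and pair nothing. Titles carry different animal numbers, and p-values measure the spread between these mice. All 29 arrays entered a limma 3.58.1 model (lmFit, eBayes; R 4.3.3) with 7 group means, run on the 14699 genes that exceeded the filter level of 5 (log2) on 3 or more arrays. Adjusted p-values are two-sided Benjamini-Hochberg values over those genes, called under 0.05.

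Array values are given for 14 collagen genes always (Col1a1, Col1a2, Col3a1, Col5a1, Col5a2, Col4a1, Col4a2, Col6a1, Col6a2, Col6a3, Col12a1, Col14a1, Col15a1 and Col18a1) and for any other called between BDL and Sham. Of the list of 51 collagen-making and collagen-binding genes, the 6 with the largest called change are named per comparison. The members, lists and rules were chosen with earlier results of these data known. Loxl2, Adamts2, Fkbp10, Itga10 and Plod3 of that list were not analysed here. Marker lists stood for hepatocytes, stellate cells and fibroblasts, cholangiocytes, mesothelium, endothelium and skeletal muscle; array means for adipocytes (4.08 to 5.22 over all arrays), skin (4.32 to 5.04) and exocrine pancreas (4.89 to 5.41) lay near the filter level.

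Simulated tables of 14699 genes, 200 of them changed, served as a check. Changes of 0.5 (log2) were called in 38.8% of cases at day 1, in 20.9% at day 3, in 50.7% at day 7 and in 61.2% at day 21. Changes of 1 were called in 94%, 80.6%, 91% and 91%. Of the calls 3.73%, 6.94%, 4.19% and 5.62% were false. The noise was drawn as normal, and 10.2% to 25.2% of genes were called in the 4 comparisons of the data. With so many more genes changed, these shares may differ from those in the data. Alternatives were no filter, a stricter filter (above 6), the mean of a gene's rows, cyclic loess, eBayes with trend and robust, array weights, only the groups compared, all 9 Sham arrays as control, a term for the 4 day 1 arrays of narrow spread, and leaving out each array. Leaving out those 4 arrays, and leaving out Sham day 7 replicate 1 from comparisons that do not hold it, were added after seeing the data.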

Additional observations from a re-analysis of the deposited data

Results flagged for a closer look

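Of 195 groups of 4 or 5 arrays tested over the 39 collagen genes, 12 held an array whose gap to its nearest neighbour was large for the range of its group (Dixon's critical value). Chance gives about 1 in 20, or 10 of 195.

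In Sham day 7, replicate 1 was the highest array for Col4a2 at 7.00, for Col6a3 at 7.74 and for Col12a1 at 5.96. In the same group replicate 4 was the lowest for Col6a6 at 5.15 and replicate 3 the lowest for Col19a1 at 4.57. In BDL day 3, replicate 5 was the lowest for Col2a1 at 5.37, replicate 3 the lowest for Col9a1 at 4.40 and replicate 4 the highest for Col8a1 at 5.85. In BDL day 1, replicate 5 was the lowest for Col8a1 at 5.37, and in BDL day 7, replicate 2 the lowest for Col4a6 at 4.54. In BDL day 21, replicate 4 was the highest for Col14a1 at 8.93 and the lowest for Col26a1 at 5.25.

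The effect of ligation differed between days 7 and 1 by limma's test of the difference for 5 genes. It was more positive at day 7 by 2.15 for Col3a1, 0.93 for Col4a2, 0.93 for Col5a1, 1.39 for Col6a3 and 1.35 for Col14a1 (log2). The call for Col5a1 was lost in 19 of 26 alternatives.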

How the results depend on the processing

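Of 203 recomputed counts of called collagen genes over 11 comparisons, 162 stayed within 1.5 times the first count, 28 were lower and 13 higher. Over 4208 recomputed differences none of the 54 calls changed sign, and 23 of the 54 were kept in every alternative. Differences that were not called could change sign. That of Col1a1 at day 1 ran from -0.12 to 0.62, and that of Col6a1 at day 3 from -0.07 to 0.48. The day 21 count of 16 stayed within 1.5 times throughout. Where no share of all genes stands beside a count below, the count has no background here. At day 1 the count of 2 became 1 with array weights (17.3% of all genes called) and 0 with only the groups compared. At day 3 the count of 4 became 9 with all 9 Sham arrays (23.7% of all genes called), and leaving out an array gave 1 to 7. At day 7 the count of 10 (9 higher, 1 lower) became 19 with array weights (12 and 7, beside 26.7% of all genes called). It became 18 with all 9 Sham arrays (11 and 7, beside 29.8%). With only the groups compared it was 6 (6 and 0), and leaving out an array gave 5 to 11. From BDL day 1 to day 3 the count of 8 became 4 without the 4 day 1 arrays of narrow spread. From BDL day 3 to day 7 the count of 7 became 11 with only the groups compared, and leaving out an array gave 4 to 11. From BDL day 7 to day 21 the count of 1 became 0 with the stricter filter, 2 with array weights and 3 with only the groups compared, and leaving out an array gave 0 to 2. Between Sham day 1 and day 7 the count of 1 became 0 with no filter, cyclic loess, only the groups compared, the term for the narrow arrays or without those arrays, and 5 with array weights; leaving out an array gave 0 to 8. For the effect at day 7 minus that at day 1 the count of 5 became 2 with only the groups compared and 1 without the 4 narrow arrays, and leaving out an array gave 3 to 10. The cause was not tested, apart from the smaller number of arrays in those settings that leave arrays out. No paired analysis was possible because the replicate numbers are accession order and the labels pair no animals.

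The 2 Sham arrays at day 3, the lack of a Sham group at day 21 and the wide spread of Sham day 7 limit these comparisons, as does signal near background for genes with means around 5.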
